A study of Mus musculus with 3 samples.

Results

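The 4 Ebf genes of the mouse, Ebf1, Ebf2, Ebf3 and Ebf4, were followed across the types of brain nuclei in this series. The members were chosen by name, by their symbols in the deposited gene lists, and all 4 were found among 32285 genes. The libraries are labelled as biological replicates 1, 2 and 3 of a single group of uninjured C57BL/6 mice, in which a retrograde label from the lumbar cord marked brain neurons, so that the sort aimed at neurons with an axon in that part of the cord. Nuclei were dissected under fluorescence, sorted and sequenced by a droplet method that counts molecules of each gene by unique molecular identifiers (UMIs). The sources used here do not give the animals per library, the tracer or the age, so the p-values measure only the spread between these 3 libraries, which may in part be technical.

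EBF proteins (early B cell factors) are transcription factors that bind DNA as dimers through a zinc-containing domain and a helix-loop-helix domain. Ebf1 is best known for setting the B cell programme, Ebf2 for brown fat and for migrating neurons, and Ebf3 for neuronal differentiation, while Ebf4 was the last member of the family to be described. In the embryonic nervous system EBF genes act downstream of proneural factors as neurons leave the cell cycle. The zinc finger proteins Zfp423 and Zfp521 bind EBF proteins and alter their activity.

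Nuclei were kept from 1000 genes upwards if mitochondrial UMIs did not exceed 5%, and numbered 2679, 2769 and 3579, or 9027 in all, with median depths of 8270, 19493 and 14388 UMIs. They were typed in a fixed order by CPM (UMIs of a gene per 1e+06 UMIs of the nucleus or sum) of marker genes, each criterion with at least 2 UMIs. The first type had Prdm6 and Pde11a together at 150 CPM or more (434 nuclei), the cortical type had Tox at 300 CPM or more (4100), and the red nucleus type had Ttc6, Chst9 and Rreb1 together at 150 CPM or more (311). The hypothalamic type had Sim1, or Ros1 and Rfx2 together, at 150 CPM or more (145), the hindbrain type had Meis1 and Meis2 together at 200 CPM or more (2454), and 1583 nuclei had no type. Lists of markers that the typing did not use had their highest sums in the type they name, although single members could differ, as Crh of the hypothalamic list did, with 37.6 ± 6.53 CPM (SD, n = 3) in Prdm6/Pde11a and 4.51 ± 3.93 in hypothalamic nuclei. Summed layer 5 markers stood at 504 ± 54.9 CPM in cortical nuclei, hypothalamic markers at 1312 ± 195 in hypothalamic nuclei, red nucleus markers at 160 ± 16.5 in red nucleus nuclei and hindbrain markers at 60.1 ± 6.52 in hindbrain nuclei. Layer 5 markers were also found at 82.1 to 147 CPM in hindbrain nuclei. Libraries shared 1 to 3 barcodes in pairs. Scrublet marked 15, 59 and 52 nuclei as doublets, and these were kept.

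Ebf1 was the member with the most UMIs. It was concentrated in Prdm6/Pde11a nuclei, at 1075 CPM in replicate 1, 1218 in replicate 2 and 1239 in replicate 3, or 1177 ± 89.5 CPM (SD, n = 3). Hindbrain nuclei followed at 239.6, 201.5 and 228.9 CPM, and red nucleus nuclei at 128.7, 96.5 and 118.6 CPM. Hypothalamic nuclei held 19.9, 10.8 and 18.9 CPM and cortical nuclei 11.7, 8.47 and 8.39 CPM. No library of a higher type overlapped a lower type down to the red nucleus, whereas the hypothalamic and cortical ranges overlapped. The mean in Prdm6/Pde11a nuclei was 124 times the cortical mean. Ebf1 and Prdm6 had been joined in an earlier look at these data, so the level in Prdm6/Pde11a nuclei is a description without a test.

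**Figure D1:**
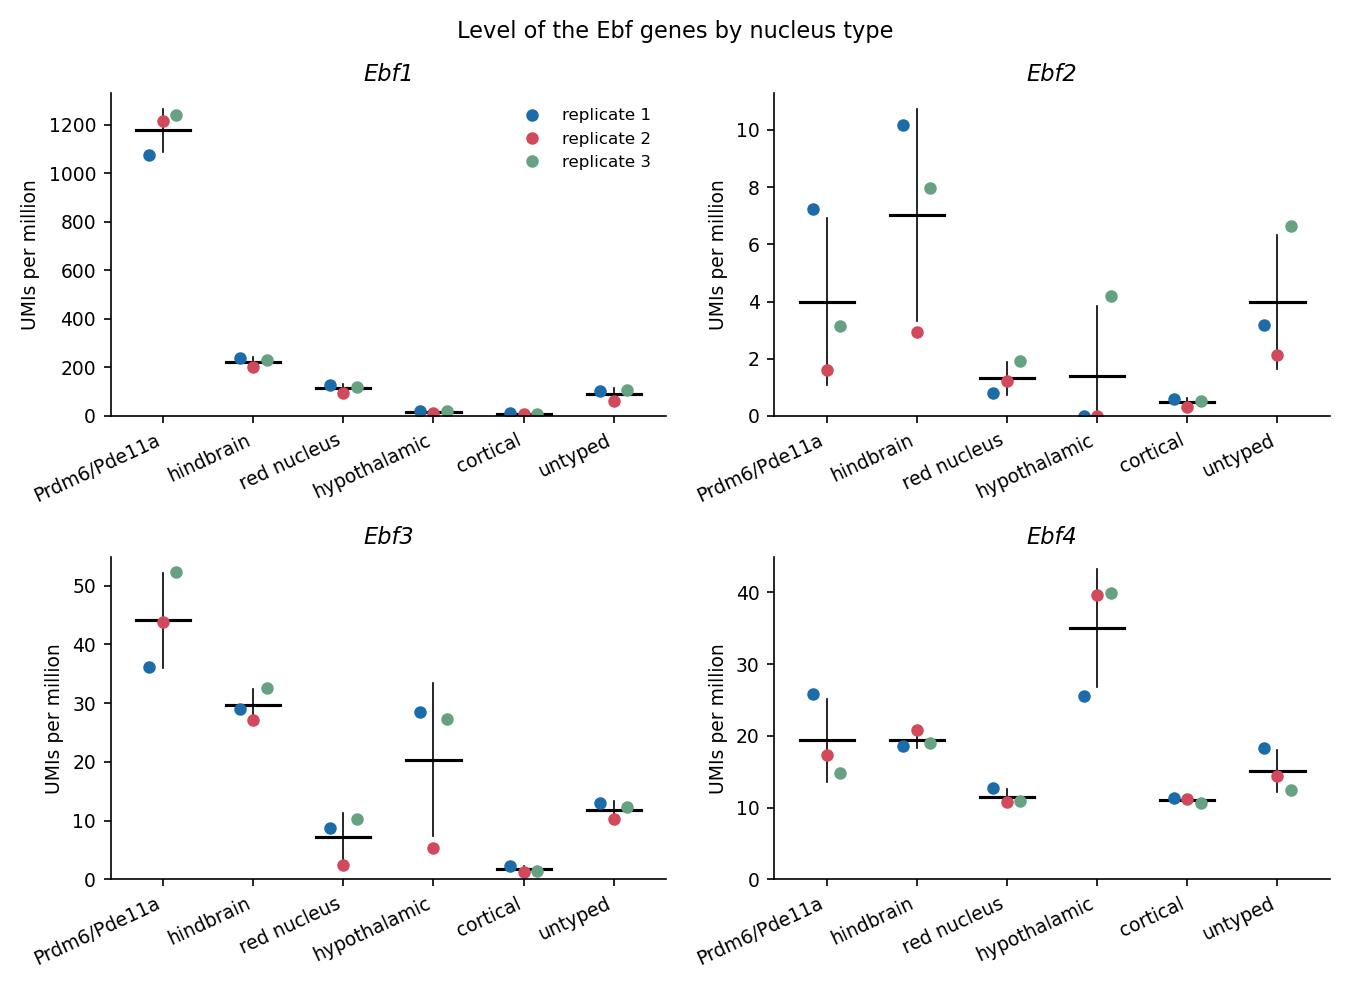
CPM of each Ebf gene (vertical axes, each with its own range) in 5 types of nuclei and in nuclei of no type, with 1 point per library, the mean as a bar and the SD as a line. Ebf1 stood at 1075 to 1239 in Prdm6/Pde11a nuclei, Ebf3 was lowest in cortical nuclei, and Ebf4 had its highest mean in hypothalamic nuclei.

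UMI sums per library and type were then compared in 1 fit of 15 sums with edgeR's quasi-likelihood test, each type against the equally weighted mean of the other 4 types on the log2 scale. Calls required a change of at least 2-fold and a p under 0.05 after Benjamini-Hochberg adjustment over all tested genes. Of 19 tested pairs of an Ebf gene and a type, which leave out Ebf1 in Prdm6/Pde11a nuclei, 5 were called higher, 5 lower and 9 not called. The share of all tested genes called higher was 4.44% for Prdm6/Pde11a, 1.81% for hindbrain, 3.91% for red nucleus, 4.01% for hypothalamic and 8.77% for cortical nuclei. The shares called lower were 1.14%, 0.522%, 2.45%, 3.08% and 12.5% in the same order.

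Ebf1 rose in hindbrain nuclei, with a log2 fold change of 1.62 (SE 0.0953, edgeR adjusted p = 2.36e-09). It fell in cortical nuclei, by 3.58 on the log2 scale (SE 0.200, edgeR adjusted p = 1.71e-11), and in hypothalamic nuclei, by 3.19 (SE 0.238, edgeR adjusted p = 1.32e-08). Red nucleus nuclei held Ebf1 at a log2 fold change of 0.54 (SE 0.125, edgeR adjusted p = 0.00441), which stays under the 2-fold limit. Between neighbours in the order, hindbrain nuclei were higher than red nucleus nuclei by a log2 difference of 0.87 (edgeR adjusted p = 3.27e-05), again under 2-fold, although with stricter typing thresholds the difference was 1.03 and was called. Red nucleus nuclei exceeded hypothalamic nuclei by 2.99 (edgeR adjusted p = 1.88e-07), a comparison in which 4.28% of tested genes were called higher. Hypothalamic and cortical nuclei differed by 0.31 (SE 0.354, edgeR adjusted p = 0.525), so their order was not resolved. In Prdm6/Pde11a nuclei the untested log2 fold change was 4.61 (SE 0.0816).

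Most Ebf1 UMIs of a library came from Prdm6/Pde11a and hindbrain nuclei. Prdm6/Pde11a nuclei carried 29.6%, 54.3% and 42.1% of them in replicates 1, 2 and 3, and hindbrain nuclei 48.3%, 32.5% and 41.2%. The larger share was that of hindbrain nuclei in replicate 1 and that of Prdm6/Pde11a nuclei in replicate 2. Of 1556 nuclei with at least 2 Ebf1 UMIs, 751 were hindbrain nuclei, 341 Prdm6/Pde11a, 126 red nucleus, 98 cortical, 6 hypothalamic and 234 of no type. The typing threshold cut through an Ebf1 gradient. Nuclei just inside, at 150 to 225 CPM of Prdm6 and Pde11a, held Ebf1 at 889 CPM pooled over 89 nuclei, and those just outside, at 100 to 150 CPM, held 603 CPM over 50 nuclei. Within the type, Ebf1 was highest where both typing genes were detected, at 1663, 1392 and 1642 CPM. It stood at 911, 800.5 and 953.5 CPM in nuclei with Prdm6 alone and at 548, 866 and 630 CPM in those with Pde11a alone. Nuclei with both genes were higher than either other set in all 3 libraries.

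Ebf3 had the same 2 leading types as Ebf1. It was found at 36.2, 43.8 and 52.3 CPM in Prdm6/Pde11a nuclei, 29.1, 27.1 and 32.6 CPM in hindbrain nuclei, 28.4, 5.41 and 27.3 CPM in hypothalamic nuclei, 8.74, 2.41 and 10.3 CPM in red nucleus nuclei, and 2.32, 1.36 and 1.46 CPM in cortical nuclei. Prdm6/Pde11a nuclei were above hindbrain nuclei without overlap, and hypothalamic nuclei spread over a range that overlapped both hindbrain and red nucleus nuclei. Ebf3 rose in Prdm6/Pde11a nuclei, with a log2 fold change of 2.22 (SE 0.203, edgeR adjusted p = 2.29e-07), and in hindbrain nuclei, with 1.46 (SE 0.179, edgeR adjusted p = 1.55e-05). It fell in cortical nuclei by 3.25 (SE 0.249, edgeR adjusted p = 1.76e-09). A fall of 1.02 in red nucleus nuclei (SE 0.332, edgeR adjusted p = 0.0374) was called but lay at the 2-fold limit and was lost under 8 of 11 alternatives, among them the removal of any 1 library. The log2 fold change in hypothalamic nuclei was 0.59 (SE 0.394, edgeR adjusted p = 0.368).

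In the order of Ebf3 levels, the step from Prdm6/Pde11a to hindbrain nuclei was 0.60 on the log2 scale (SE 0.209, edgeR adjusted p = 0.113) and was not called. The step from hindbrain to hypothalamic nuclei was 0.70 (SE 0.367, edgeR adjusted p = 0.304), and that from hypothalamic to red nucleus nuclei 1.29 (SE 0.503, edgeR adjusted p = 0.0991). Red nucleus nuclei were above cortical nuclei by 1.78 (SE 0.422, edgeR adjusted p = 0.00195, with 12.1% of tested genes called higher in red nucleus nuclei), but without replicate 3 this step was 1.30 with an edgeR adjusted p of 0.108.

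Ebf2, the rarest member, had 332 UMIs in all kept nuclei. It stood at 10.2, 2.93 and 7.99 CPM in hindbrain nuclei, 7.23, 1.61 and 3.16 CPM in Prdm6/Pde11a nuclei, 0.794, 1.21 and 1.93 CPM in red nucleus nuclei, 0, 0 and 4.20 CPM in hypothalamic nuclei (2 UMIs in all) and 0.599, 0.328 and 0.537 CPM in cortical nuclei. Replicate 2 was the lowest library in hindbrain and Prdm6/Pde11a nuclei, and the ranges of these types overlapped. Ebf2 rose in hindbrain nuclei with a log2 fold change of 2.15 (SE 0.332, edgeR adjusted p = 0.000190). A fall in cortical nuclei of 1.92 (SE 0.516, edgeR adjusted p = 0.00349) was called as well, but without replicate 3 the log2 fold change was -0.32 and was not called, nor was it with stricter typing thresholds or without nuclei that hold vascular markers. Prdm6/Pde11a nuclei, at 0.95 (edgeR adjusted p = 0.199), red nucleus nuclei, at -0.57 (edgeR adjusted p = 0.632), and hypothalamic nuclei, at -0.61 (edgeR adjusted p = 0.755), were not called. The Ebf2 contrasts rest on a mean that includes the 2 hypothalamic UMIs. Taken directly, hindbrain nuclei were above cortical nuclei by 3.25 on the log2 scale (SE 0.360, edgeR adjusted p = 3.42e-07, with 11.7% of tested genes called higher in hindbrain nuclei). The contrast of hindbrain and Prdm6/Pde11a nuclei gave 0.95 (SE 0.427, edgeR adjusted p = 0.255).

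Ebf4 departed from this order. Its mean was highest in hypothalamic nuclei, at 25.6, 39.7 and 39.9 CPM on 9, 22 and 19 UMIs. Hindbrain nuclei held 18.6, 20.8 and 19.0 CPM and Prdm6/Pde11a nuclei 25.8, 17.4 and 14.9 CPM. The hypothalamic and Prdm6/Pde11a ranges overlapped, as replicate 1 was slightly higher in Prdm6/Pde11a nuclei. Red nucleus nuclei held 12.7, 10.9 and 11.0 CPM and cortical nuclei 11.3, 11.3 and 10.6 CPM. The cortical level was 11.1 ± 0.377 CPM (SD, n = 3), and the highest mean was 3.17 times that level, against 124 times for Ebf1. Ebf4 rose in hypothalamic nuclei with a log2 fold change of 1.12 (SE 0.216, edgeR adjusted p = 0.00104). The call sits near the size limit, since without replicate 3 the value was 0.98 and without a filter on low counts 0.99. Cortical nuclei, at -0.40 (edgeR adjusted p = 0.00930), and red nucleus nuclei, at -0.74 (edgeR adjusted p = 0.0101), were under the 2-fold limit. Hindbrain nuclei gave 0.09 (SE 0.125, edgeR adjusted p = 0.740) and Prdm6/Pde11a nuclei -0.07 (SE 0.162, edgeR adjusted p = 0.839). The neighbour of hypothalamic nuclei in the order was the hindbrain, at a log2 difference of 0.82 (SE 0.222, edgeR adjusted p = 0.0236), again under 2-fold. Prdm6/Pde11a against hypothalamic nuclei gave a log2 fold change of -0.95 (SE 0.245, edgeR adjusted p = 0.0176), which was under 2-fold and not called.

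The genes lie on different chromosomes. On the mouse build GRCm38 with GENCODE M21 annotation, Ebf1 (ENSMUSG00000057098) spans chr11:44617317-45008091 on the plus strand and Ebf2 (ENSMUSG00000022053) chr14:67233292-67430918 on the plus strand. Ebf3 (ENSMUSG00000010476) spans chr7:137193673-137314445 on the minus strand and Ebf4 (ENSMUSG00000053552) chr2:130295169-130370481 on the plus strand. Genes on the opposite strand overlap Ebf1 (1 gene), Ebf2 (5) and Ebf3 (2), and none overlaps Ebf4. The sources used here do not say whether counting used strand, so reads of an Ebf gene and its antisense partner cannot be told apart. Gm12158, opposite Ebf1, had 14.9 ± 2.33 CPM (SD, n = 3) in Prdm6/Pde11a nuclei and 2.26 ± 0.912 in hindbrain nuclei. Gm10578, opposite Ebf3, had 4.86 ± 1.21 and 3.19 ± 1.14 CPM in the same types. The other partner of Ebf3, Gm45278, had 1 UMI in hindbrain and 0 in Prdm6/Pde11a nuclei. Opposite Ebf2, 4930438E09Rik had 2.53 ± 1.05 CPM (72 UMIs) in hindbrain nuclei, where Ebf2 itself had 7.03 ± 3.71 CPM (199 UMIs). Gm12158, Gm10578 and 4930438E09Rik were each highest in the type where the Ebf gene they overlap was highest. The other measured partners of Ebf2 were higher in Prdm6/Pde11a than in hindbrain nuclei, on few UMIs. Gm6878 had 1.33 CPM (5 UMIs) against 0.169 (4 UMIs), and Gm10860 1.03 (3 UMIs) against 0.0767 (2 UMIs). For 1700120O09Rik the values were 0.709 (4 UMIs) and 0.551 CPM (16 UMIs).

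The bases just before a start site are shown because Ebf1 and Ebf3 shared their leading types while Ebf4 did not. They are the 250 bases before a RefSeq start on GRCm38.p6, written 5′ to 3′ on the gene's strand, and capitals mark matches to CCCNNGGG, the core of the EBF palindrome TCCCNNGGGA. The Ebf1 window (chr11:44619978-44620227, plus strand) precedes a second start inside the gene, because the window of the first start overlaps annotated exons. The Ebf3 window is chr7:137314446-137314695 (minus strand) and the Ebf4 window chr2:130295689-130295938 (plus strand). The Ebf4 window also lies inside the span annotated for its gene, which begins at chr2:130295169, and overlaps no annotated exon.
Ebf1, second start: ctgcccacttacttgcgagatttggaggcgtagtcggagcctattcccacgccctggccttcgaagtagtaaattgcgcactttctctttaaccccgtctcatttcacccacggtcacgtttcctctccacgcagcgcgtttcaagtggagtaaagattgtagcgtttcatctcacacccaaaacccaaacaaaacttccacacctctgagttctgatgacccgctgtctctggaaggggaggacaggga
Ebf3: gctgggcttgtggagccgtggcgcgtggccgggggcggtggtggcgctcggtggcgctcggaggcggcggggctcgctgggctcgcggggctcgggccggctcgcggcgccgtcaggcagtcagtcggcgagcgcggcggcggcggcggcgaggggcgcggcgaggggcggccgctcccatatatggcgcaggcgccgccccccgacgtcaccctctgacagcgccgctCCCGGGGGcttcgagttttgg
Ebf4: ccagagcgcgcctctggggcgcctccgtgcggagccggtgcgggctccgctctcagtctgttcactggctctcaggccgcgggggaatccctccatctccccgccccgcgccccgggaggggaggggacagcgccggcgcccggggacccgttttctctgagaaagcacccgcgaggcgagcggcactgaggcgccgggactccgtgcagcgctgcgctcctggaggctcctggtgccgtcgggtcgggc
The Ebf3 window was 80% G or C with 43 CpG dinucleotides, the Ebf4 window 75.2% with 31, and the Ebf1 window 52% with 14. Over 32851 mouse promoter windows of this length the medians were 52.4% and 6. The core was found in the Ebf3 window (1 match on both strands searched) and in neither of the others, and 11.8% of all windows hold it. The longer palindrome was in none of the windows shown and is in 0.779% of all windows. A match is a description of letters and not a binding site.

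Nuclei differed in depth, so detection was also compared after thinning every nucleus to 5000 UMIs, with shallower nuclei left out. At this depth Ebf1 was found in 80.4% ± 5.14 (SD, n = 3) of Prdm6/Pde11a nuclei, 36.4% ± 1.26 of red nucleus nuclei, 34.4% ± 0.620 of hindbrain nuclei, 5.44% ± 2.15 of hypothalamic nuclei and 3.21% ± 0.522 of cortical nuclei. Unthinned, the shares were 86.4%, 61.6%, 47.5%, 9.10% and 8.70%. Red nucleus and hindbrain nuclei thus had Ebf1 in like shares, although the mean level in hindbrain nuclei was higher. Before thinning, 374 hindbrain nuclei, 15.2% of the type, held 5 or more Ebf1 UMIs and 1297 held none, against 291 and 58 of the 434 Prdm6/Pde11a nuclei.

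Ebf3 was found in 20.1% ± 2.04 of Prdm6/Pde11a nuclei after thinning, 12.03% ± 1.17 of hindbrain, 6.74% ± 4.39 of hypothalamic, 3.002% ± 1.49 of red nucleus and 0.938% ± 0.181 of cortical nuclei. Ebf4 shares were 13.7% ± 4.17 in hypothalamic nuclei, 9.55% ± 1.22 in hindbrain, 8.98% ± 2.05 in Prdm6/Pde11a, 5.95% ± 1.21 in red nucleus and 5.56% ± 0.430 in cortical nuclei. Ebf2 reached 2.12% ± 1.07 of Prdm6/Pde11a nuclei and 1.44% ± 0.374 of hindbrain nuclei, with 0.314% ± 0.0814 of cortical nuclei. The order of these shares rests on nuclei with a single UMI. At least 2 Ebf2 UMIs were found before thinning in 0%, 0.625% and 0.595% of Prdm6/Pde11a nuclei, which are 0, 1 and 1 nuclei. In hindbrain nuclei the shares were 1.07%, 0.796% and 1.12%, or 9, 5 and 11 nuclei. They were higher in the hindbrain in all 3 libraries, but on counts so small that 1 nucleus can change the order. Free RNA in droplets gives UMIs in nuclei that do not express a gene, and for Ebf1, Ebf2 and Ebf3 the cortical shares, at median depths of 12700.5 to 26998 UMIs before thinning, are the lowest reference here. Hindbrain nuclei had median depths of 7436 to 15076 UMIs.

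**Figure D2:**
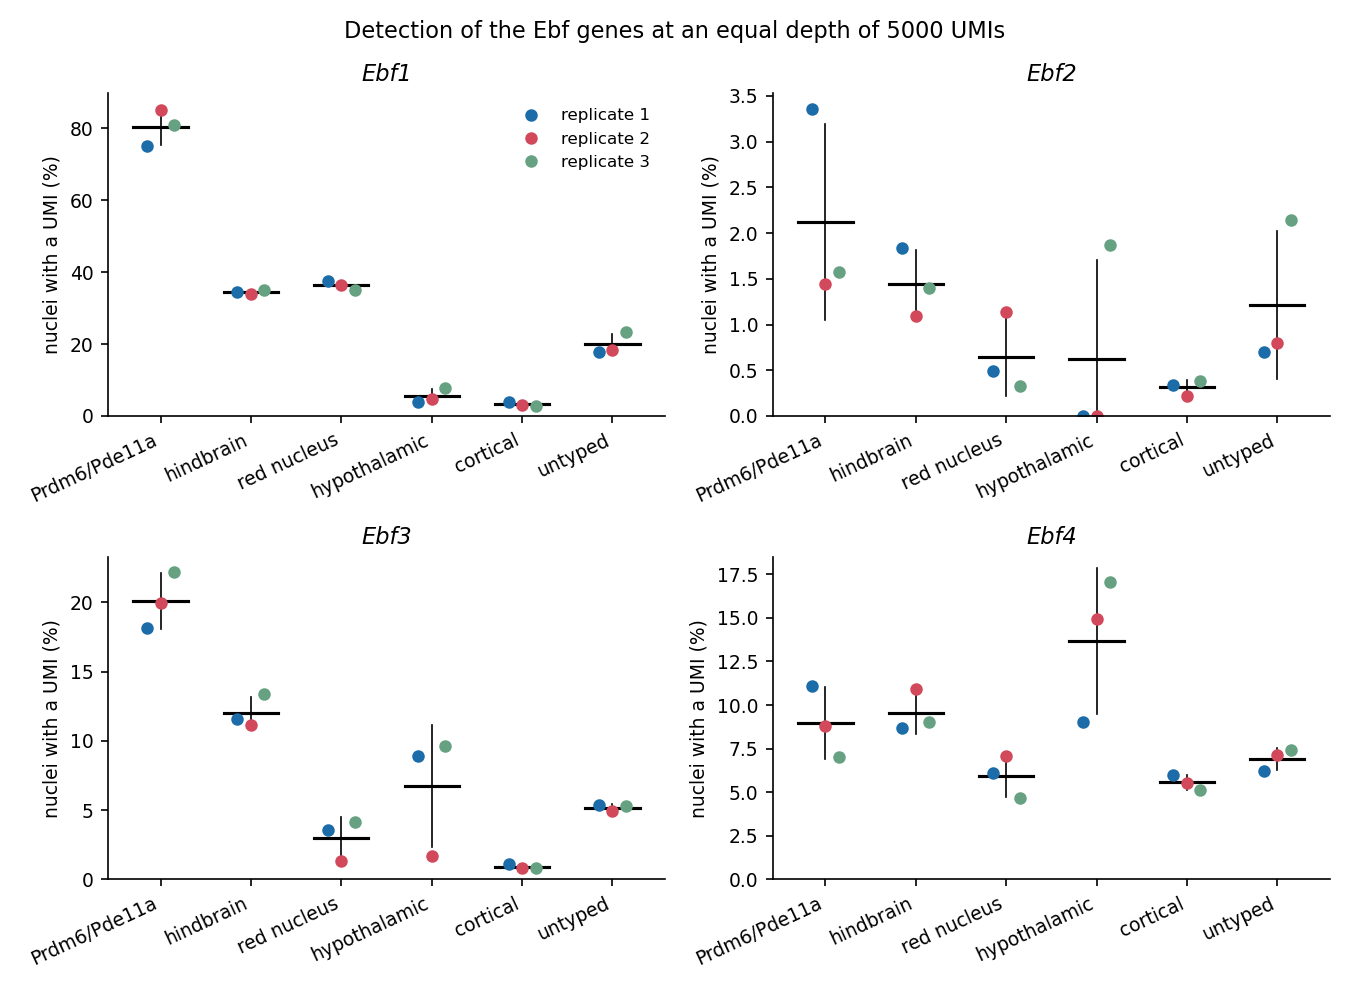
Share of nuclei with at least 1 UMI of each Ebf gene after thinning to 5000 UMIs (vertical axes in percent, each with its own range), by type, with 1 point per library, the mean as a bar and the SD as a line. Ebf1 reached 80.4% of Prdm6/Pde11a nuclei, and red nucleus and hindbrain nuclei stood at 36.4% and 34.4%.

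Several Ebf genes were often found in the same Prdm6/Pde11a nucleus. Before thinning, 42.5%, 58.1% and 48.2% of them held UMIs of at least 2 Ebf genes in replicates 1, 2 and 3, against 14.5%, 27.9% and 23.2% of hindbrain nuclei, 13.8%, 20.5% and 14.5% of red nucleus nuclei and 2.42%, 5.11% and 2.58% of cortical nuclei. These shares move with depth, and replicate 2, the deepest library, was the highest in each of these types. All 4 genes were found together in 1, 4 and 3 hindbrain nuclei, in 1 Prdm6/Pde11a nucleus and in 3 cortical nuclei.

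Co-detection was set beside the product of the separate shares, which is the share expected if the genes were found independently of each other. Ebf1 and Ebf3 were found together in 16.6% ± 2.89 (SD, n = 3) of Prdm6/Pde11a nuclei at 5000 UMIs, against a product of 16.2%, and the ratio was 0.983 to 1.05 over the libraries. In hindbrain nuclei they were found together in 4.39% ± 0.682, against 4.15%, with ratios of 0.989 to 1.11. Ebf3 was present in 20.6% of Prdm6/Pde11a nuclei with Ebf1 and 17.2% of those without it, and in 12.7% and 11.7% of hindbrain nuclei. Ebf1 and Ebf4 in hindbrain nuclei gave ratios of 0.984 to 1.14, and Ebf3 and Ebf4 ratios of 0.826 to 1.20. In hindbrain nuclei, then, these pairs were found together about as often as their separate shares give, and in Prdm6/Pde11a nuclei so were Ebf1 and Ebf3. Ebf1 was in 80.4% of Prdm6/Pde11a nuclei, however, so a ratio with Ebf1 could not rise far above equality there.

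Over all nuclei together, however, Ebf1 and Ebf3 shared nuclei at 1.81 to 2.69 times the product. That pooled ratio also counts the types in which both genes were high. Ebf1 and Ebf2 were different within the hindbrain. They were found together in 1.20% ± 0.399 of hindbrain nuclei against a product of 0.497%, and the ratio was 2.22 to 2.61 in the 3 libraries. Ebf2 was in 3.49% ± 1.15 of hindbrain nuclei with Ebf1 and in 0.361% ± 0.103 of those without. The same pair in Prdm6/Pde11a nuclei had ratios of 0.908 to 1.05. Ebf2 and Ebf3 in hindbrain nuclei had ratios of 0.976 to 2.12, resting on 19 nuclei.

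**Figure D3:**
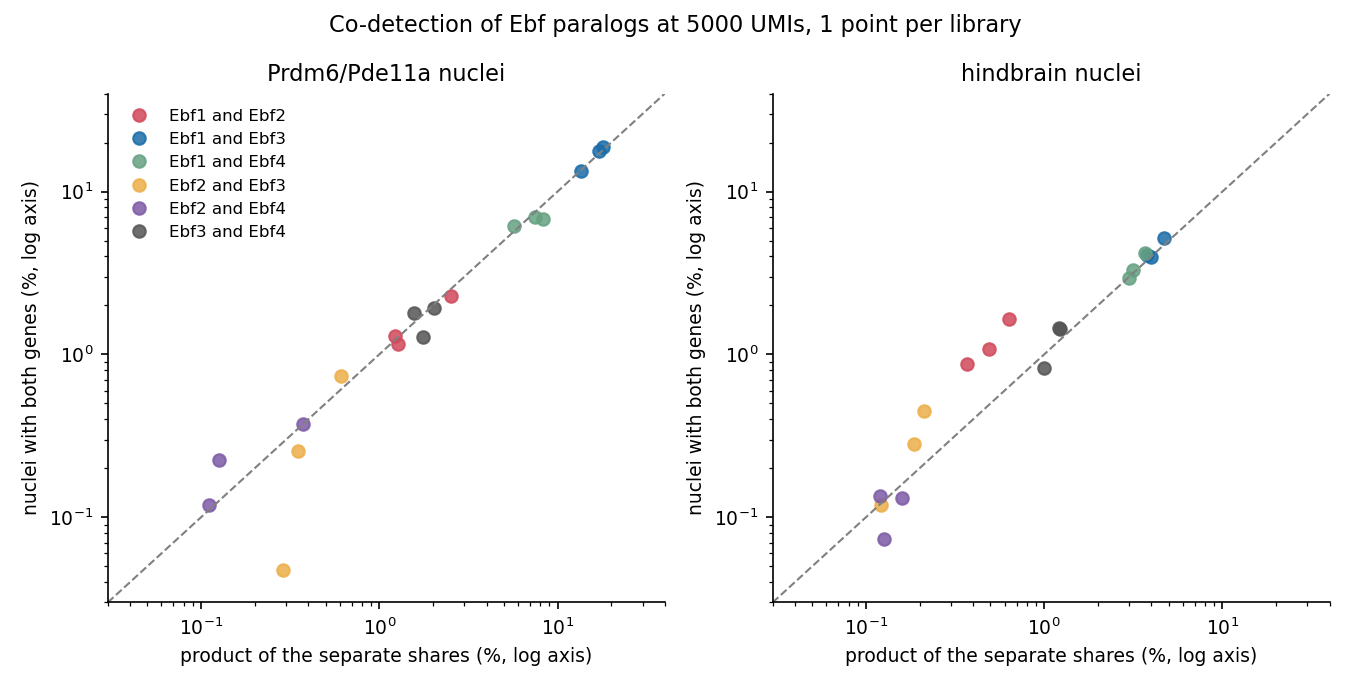
Share of nuclei with both genes of a pair (vertical) against the product of the separate shares (horizontal), both in percent on log axes at 5000 UMIs, with 1 point per library and pair. Points lie near the dashed line of equality for Ebf1 with Ebf3, and in hindbrain nuclei the 3 points of Ebf1 with Ebf2 lie above it, at 2.22 to 2.61 times the product.

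In cortical nuclei, where the Ebf genes were rare, Ebf1 and Ebf3 were found together at 7.34 to 7.997 times the product, in 37 nuclei before thinning. Cortical nuclei with 5 or more Ebf1 UMIs numbered 35, of which Scrublet marked 15 as doublets (42.9%, exact 95% binomial interval 26.3 to 60.6). Among 3738 cortical nuclei with no Ebf1 UMI it marked 37 (0.990%, 0.698 to 1.36). The intervals cover counting error only. The 35 nuclei also held the hindbrain typing genes at higher levels than cortical nuclei without Ebf1. Meis1 stood at 26.3 against 1.96 CPM, whereas Meis2, which cortical nuclei hold as well, stood at 278 against 190 CPM. Slc17a6, the vesicular glutamate transporter of subcortical neurons, stood at 30.9 against 5.56 CPM. In hindbrain nuclei Scrublet marked 9 of 374 nuclei with 5 or more Ebf1 UMIs and 9 of 1297 without.

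Ebf2 was held by few nuclei. Over all types 44 nuclei had at least 2 Ebf2 UMIs, 12, 9 and 23 in the 3 libraries, and 25 of them were hindbrain nuclei. Each of these 25 hindbrain nuclei also held an Ebf1 UMI. Ebf2 stood there at 682, 210 and 505 CPM, and Ebf1 at 1007, 540 and 873 CPM, against 227, 196 and 222 CPM of Ebf1 in hindbrain nuclei without Ebf2. Zfp521 was at 336, 137 and 229 CPM in these nuclei and at 104, 96.8 and 103 CPM in those without Ebf2, higher in all 3 libraries. These nuclei were selected by Ebf2, and 9, 5 and 11 per library are too few for the comparison below.

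Hindbrain nuclei of at least 5000 UMIs were then split by each Ebf gene into nuclei with at least 2 UMIs and nuclei with 0 UMIs, wherever each library held at least 20 nuclei in both arms. This was met for Ebf1, with 184, 217 and 295 nuclei with and 357, 278 and 473 without, and for Ebf3, with 43, 73 and 92 against 524, 459 and 706. The splits by Ebf2 and Ebf4 were not run, as at least 1 library fell short. Nuclei with Ebf1 were deeper, at medians of 9629, 17754 and 12954 UMIs against 8624, 14112.5 and 10436, and so were nuclei with Ebf3, at 10136, 22055 and 13212 against 8809.5, 15150 and 10734. The part of depth in the differences was not tested.

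Summed over nuclei, the arm with Ebf1 held more Ebf2, while Ebf3 and Ebf4 were not called. Few nuclei carried the Ebf2 difference, since 18, 15 and 21 hindbrain nuclei of any depth held an Ebf2 UMI in replicates 1, 2 and 3. The arm with Ebf1 had 175 Ebf2 UMIs and the arm without had 8. The co-detection of Ebf1 with Ebf2 above came from the same nuclei, so the fit is not separate evidence. Ebf2 rose from 0.286, 0.427 and 0.895 CPM without Ebf1 to 32.7, 6.26 and 20.6 CPM with it, and the arms did not overlap. The log2 fold change was 4.92 (SE 0.366, edgeR adjusted p = 3.58e-07, higher in 3 of 3 libraries), and it was 4.29 to 5.41 under every alternative run. In this comparison 0.432% of 14567 tested genes were called higher and 1.02% lower. Ebf3 stood at 27.9 ± 4.00 CPM with Ebf1 and 26.4 ± 3.72 without (SD, n = 3), a log2 fold change of 0.09 (SE 0.122, edgeR adjusted p = 0.799). Ebf4 stood at 18.7 ± 0.969 and 18.6 ± 1.47 CPM, with 0.01 (SE 0.145, edgeR adjusted p = 0.991), and both ranges overlapped.

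Of 8 EBF partner and co-regulator genes tested in this split, 0 were called, with a median log2 fold change of 0.07 against 0.00 over all genes. Zfp521 was the member that came nearest, at 151, 129 and 134 CPM with Ebf1 and 87.0, 67.7 and 88.7 CPM without. Its log2 fold change of 0.76 (SE 0.0771, edgeR adjusted p = 7.46e-06) had the same direction in 3 of 3 libraries and was under 2-fold. Zfp423 stood at 58.8 ± 7.08 CPM with Ebf1 and 47.1 ± 1.61 without (log2 fold change 0.29, edgeR adjusted p = 0.114). Of 8 tested genes in the list of proneural factors and E proteins, which also holds Id genes, 0 were called higher and 1 lower. This was Neurod2, a factor of cortical excitatory neurons, whose call was lost without replicate 3.

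Of 6 transmitter genes tested, 4 were called lower with Ebf1 and 0 higher, with a median log2 fold change of -1.24. The largest fall in this list was that of Tph2, the enzyme of serotonin synthesis in neurons, at 2.59, 0.895 and 1.23 CPM with Ebf1 and 23.2, 2.99 and 27.6 CPM without (log2 fold change -3.52, SE 0.342, edgeR adjusted p = 4.86e-06). Slc6a5, the glycine transporter of inhibitory neurons, was at 3.66 ± 2.19 with and 9.34 ± 5.10 CPM without (SD, n = 3; log2 fold change -1.38, edgeR adjusted p = 0.00403). Slc17a7, the vesicular glutamate transporter of cortical neurons, was at -1.10 (edgeR adjusted p = 1.39e-05), and Th, of catecholamine synthesis, at -1.53 (edgeR adjusted p = 0.0252), lower in 2 of 3 libraries. Without replicate 2 the Th value was -0.74, and without replicate 3 that of Slc6a5 was -1.30 (edgeR adjusted p = 0.0694), so neither was called. Slc17a6 was at 118 ± 10.1 CPM with Ebf1 and 83.7 ± 12.2 without, a log2 fold change of 0.47 (edgeR adjusted p = 0.00117) in 3 of 3 libraries that was under 2-fold.

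Of 15 homeobox and other identity factors tested, 2 were called higher and 3 lower with Ebf1. Irx2, an Iroquois homeobox factor, rose by 2.18 (edgeR adjusted p = 0.0321), from 1.12 ± 1.27 to 5.17 ± 2.99 CPM. Lhx9, a LIM homeobox factor, had 67 UMIs with Ebf1 and 1 without, a ratio of 88.0 with an exact 95% counting interval of 15.3 to 3525. Prdm6, a typing gene of the first type, stood at 13.9 CPM in hindbrain nuclei with 5 or more Ebf1 UMIs, pooled over libraries. It stood at 0.554 CPM in those with 0 Ebf1 UMIs. Lhx9 itself had 31.3 CPM in Prdm6/Pde11a nuclei with 5 or more Ebf1 UMIs. The part of nuclei just under the Prdm6/Pde11a threshold in the Lhx9 and Zfp521 rises was not tested. Nfib and Nfix, nuclear factor I proteins, fell by 1.87 (edgeR adjusted p = 2.499e-10) and 1.26 (edgeR adjusted p = 0.000171), and Tfap2b, an AP-2 factor of inhibitory and monoaminergic lineages, fell by 1.05 (edgeR adjusted p = 0.00237), a call lost without replicate 3.

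The genes with the largest rise with Ebf1, among those of at least 20 CPM, were Gm32828, Gm26512, Spx, 2310039L15Rik, Nlrp12, Adamtsl1, 9630002D21Rik and Fbxl7, with log2 fold changes of 1.43 to 2.64. Spx, which encodes the neuropeptide spexin, stood at 31.0 ± 8.67 CPM with and 6.43 ± 0.867 without (SD, n = 3). Fbxl7, an F-box protein, stood at 78.7 ± 6.596 and 28.6 ± 2.85 CPM. Gm26512 rested on replicate 2, where it was at 71.1 CPM with Ebf1 against 5.71 and 5.15 in the others. Without that library its log2 fold change was 0.74 (edgeR adjusted p = 0.512), and without nuclei that hold vascular markers it was -0.11. Nlrp12 without replicate 2 was at 0.91 and under 2-fold.

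The largest falls among genes of at least 20 CPM without Ebf1 were those of Slc44a4, Iqgap2, Nfib, Inf2, Gm19410, Gm28376, Slc18a2 and Dscaml1, with log2 fold changes of -2.53 to -1.70. Slc18a2, the vesicular monoamine transporter, was at 8.17 ± 2.31 CPM with and 27.7 ± 8.99 without Ebf1. Tph2 and Slc18a2, both genes of monoamine neurons, were thus lower in hindbrain nuclei with Ebf1. Cortical markers moved in the same direction, with the 6 layer 5 markers summing to 50.3 to 95.1 CPM with Ebf1 and 115 to 212 CPM without, and their part in the falls of Nfib, Slc17a7 and Neurod2 was not tested. The 3 neuronal markers also summed lower with Ebf1, at 1661 to 1767 against 2207 to 2552 CPM, whereas the 7 hindbrain markers summed higher, at 63.3 to 68.6 against 42.4 to 59.6 CPM, and so did the 4 red nucleus markers, at 109.6 to 132 against 80.5 to 102 CPM. The part of these lists was not tested either. Over all hindbrain nuclei the 10 pericyte and smooth muscle markers summed to 36.8 ± 3.96 CPM, of which Rgs5 was a small part at 0.862 ± 0.619. The 7 endothelial markers summed to 15.9 ± 3.17 CPM there, of which Cldn5 was a small part at 0.0283 ± 0.0490. The whole pericyte list summed to 33.1 to 42.5 CPM with Ebf1 and 23.5 to 36.1 without. The 7 endothelial markers summed to 12.7 to 24.9 CPM with Ebf1 and 10.5 to 13.7 without. The 6 fibroblast markers summed to 1.79 to 3.43 and 1.92 to 3.58 CPM. The part of these vascular and fibroblast lists was not tested.

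**Figure D4:**
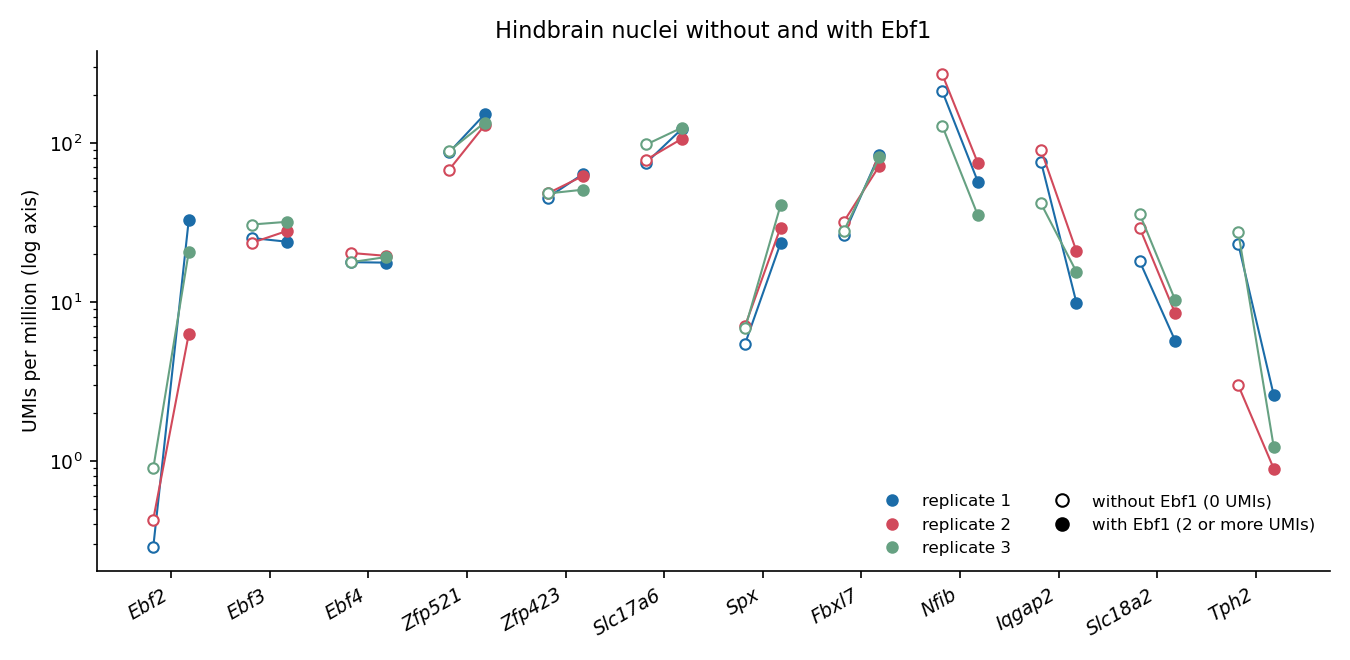
CPM (log axis) of 12 genes in hindbrain nuclei without Ebf1 (open points, 0 UMIs) and with it (filled points, 2 or more UMIs), joined within each of the 3 libraries. Ebf2 rose in every library, Ebf3 and Ebf4 stayed within overlapping ranges, and Nfib, Iqgap2, Slc18a2 and Tph2 fell in every library.

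The count of genes called in the Ebf1 split, 63 higher and 149 lower, depended on the fit. Without the library as a block it was 13 higher and 17 lower, and with DESeq2 30 higher and 81 lower. The Ebf2 rise was called in both.

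The split by Ebf3 gave 77 genes higher (0.557% of 13817 tested) and 269 lower (1.95%). With DESeq2 the counts were 49 and 107, and without the block 46 and 100. Of the other Ebf genes 0 of 3 were called. Ebf1 stood at 98.9, 260 and 247 CPM with Ebf3 and 204, 180 and 188 CPM without, lower in replicate 1 and higher in both others (log2 fold change 0.23, SE 0.147, edgeR adjusted p = 0.485). Ebf2 was at 0, 6.84 and 5.37 CPM with Ebf3 and 3.67, 2.501 and 3.71 CPM without (0.73, SE 0.504, edgeR adjusted p = 0.540). Ebf4 was at 16.2 ± 8.08 and 18.4 ± 1.11 CPM (0.02, SE 0.230, edgeR adjusted p = 0.984).

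The genes of at least 20 CPM with the largest rise with Ebf3 were Crp, Pard3bos1, Csta2, Gm13974, Pard3b, Lypd6, Dock2 and Insyn2b, at log2 fold changes of 1.63 to 2.81. Pard3b, a cell polarity protein, was at 174, 147 and 225 CPM with Ebf3 and 68.9, 33.6 and 55.1 CPM without (log2 fold change 1.94, SE 0.116, edgeR adjusted p = 3.47e-10). Lypd6, a Ly6 family protein that binds nicotinic receptors, was at 68.7 ± 17.98 and 20.7 ± 10.0 CPM. The largest falls, again among genes of at least 20 CPM, were those of 2310039L15Rik, Cenpf, Nox4, Arhgap15, Btk, Tex22, Iqgap2 and Rxfp1, at -3.36 to -2.91. Rxfp1, the relaxin receptor, was at 7.72 ± 1.99 CPM with Ebf3 and 70.6 ± 35.8 without. The gene 2310039L15Rik was thus lower in nuclei with Ebf3 and higher in nuclei with Ebf1, although the splits were separate fits of overlapping nuclei and the difference between them was not tested.

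Of 15 identity factors tested in the Ebf3 split, 1 was called higher and 5 lower, with a median log2 fold change of 0.43 against 0.00 over all genes. Onecut3, of the onecut homeobox family, was at 18.8, 18.03 and 17.6 CPM with Ebf3 and 6.94, 9.53 and 6.73 CPM without (log2 fold change 1.22, SE 0.275, edgeR adjusted p = 0.00734). Nfib, Nfix and Nfia fell by 1.97, 1.74 and 1.11 (edgeR adjusted p = 3.44e-09, 0.00159 and 8.92e-07), and Tfap2b by 1.88 (edgeR adjusted p = 0.00272). The calls of Onecut3, Tfap2b and Lhx1 were lost without replicate 3 and that of Nfix without replicate 2. Lhx1, a LIM homeobox factor, had 0 UMIs with Ebf3 and 4.55 ± 0.590 CPM without, and was at least 5.06-fold lower against 3 counts over the arm, a bound that leaves out the counting error of the arm without Ebf3. Layer 5 markers again moved with the split, at 23.6 to 72.1 CPM with Ebf3 and 93.7 to 164 without. The 7 endothelial markers summed to 21.5 to 24.2 CPM with Ebf3 and 12.3 to 20.1 without, and the part of either list was not tested. Of 4 transmitter genes Gad2 was lower (-2.05). Of 7 genes in the proneural, E protein and Id list Neurod2 was lower, with 3 UMIs against 125 (6.26-fold lower, exact 95% counting interval 2.09 to 30.8). Of 8 EBF partner genes 0 were called. Zfp521, at 154 ± 19.7 CPM with Ebf3 and 89.8 ± 5.03 without, again had a log2 fold change under 2-fold, 0.78 (SE 0.0940, edgeR adjusted p = 7.52e-06).

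Across types, the partner genes Zfp521 and Zfp423 were the 2 of 8 list members called higher in Prdm6/Pde11a nuclei, and 0 were lower. Zfp521 stood at 221 CPM there against 49.4 over the other types (log2 fold change 2.78) and Zfp423 at 60.9 against 37.5 (1.17). The list's median log2 fold change was 0.07, against 0.03 over all genes. Type by type, Prdm6/Pde11a nuclei had 1 of 8 higher against red nucleus, hypothalamic and hindbrain nuclei each (2.86%, 2.61% and 2% of all genes). Among nuclei without Ebf2 UMIs, Zfp423 stood at 55.0, 75.3 and 54.6 CPM in Prdm6/Pde11a nuclei. It stood at 73.9, 55.9 and 42.9 CPM in hypothalamic and 6.93, 3.29 and 3.41 CPM in cortical nuclei. Against the mean of the other types, hindbrain nuclei had 1 of 8 higher, Zfp521 with 1.41. In cortical nuclei 0 were higher and 3 lower, namely Prdm16, Zfp423 and Zfp521, and in red nucleus and hypothalamic nuclei 0 were called. Zfp521 was thus called in the same types and directions as Ebf3 in Prdm6/Pde11a, hindbrain and cortical nuclei. The proneural and E protein list, which also holds the Id genes, had 7 members tested. Of these, 4 were higher in cortical nuclei (Neurod6, Neurod2, Id2 and Tcf4) and 1 lower (Id4). Id genes are neither proneural factors nor E proteins, so these counts are not of 1 kind of factor. In red nucleus nuclei 1 was lower, and in Prdm6/Pde11a, hindbrain and hypothalamic nuclei 0 were called. Among 18 identity factors, Prdm6/Pde11a nuclei had 5 higher and 2 lower and hindbrain nuclei 6 higher and 1 lower. Red nucleus nuclei had 6 higher and 4 lower, hypothalamic nuclei 5 and 4, and cortical nuclei 3 and 11. Over all tested genes 4.44%, 1.81%, 3.91%, 4.01% and 8.77% were called higher in these types, in the order given. The shares called lower were 1.14%, 0.522%, 2.45%, 3.08% and 12.5%. The list's median log2 fold changes were -0.25, 0.37, -0.17, -0.54 and -1.82. Onecut1 and Onecut3 were higher in both Prdm6/Pde11a and hindbrain nuclei.

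Zfp521 also followed the Ebf1 UMIs of single nuclei. Pooled over libraries, hindbrain nuclei with 0, 1 to 4 and 5 or more Ebf1 UMIs held Zfp521 at 81.0, 90.8 and 179 CPM, and Prdm6/Pde11a nuclei at 66.8, 83.7 and 282 CPM. The nuclei with 5 or more Ebf1 UMIs were the highest in each library. Ebf3 held 28.0, 31.6 and 30.9 CPM in the same classes of hindbrain nuclei and 37.0, 48.0 and 46.5 CPM in Prdm6/Pde11a nuclei. These classes are cut from UMI counts, which rise with depth, and are given without a test. Prdm6 rose over the hindbrain classes too, at 0.554, 0.990 and 13.9 CPM. The part of nuclei just under the Prdm6/Pde11a threshold was not tested.

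**Figure D5:**
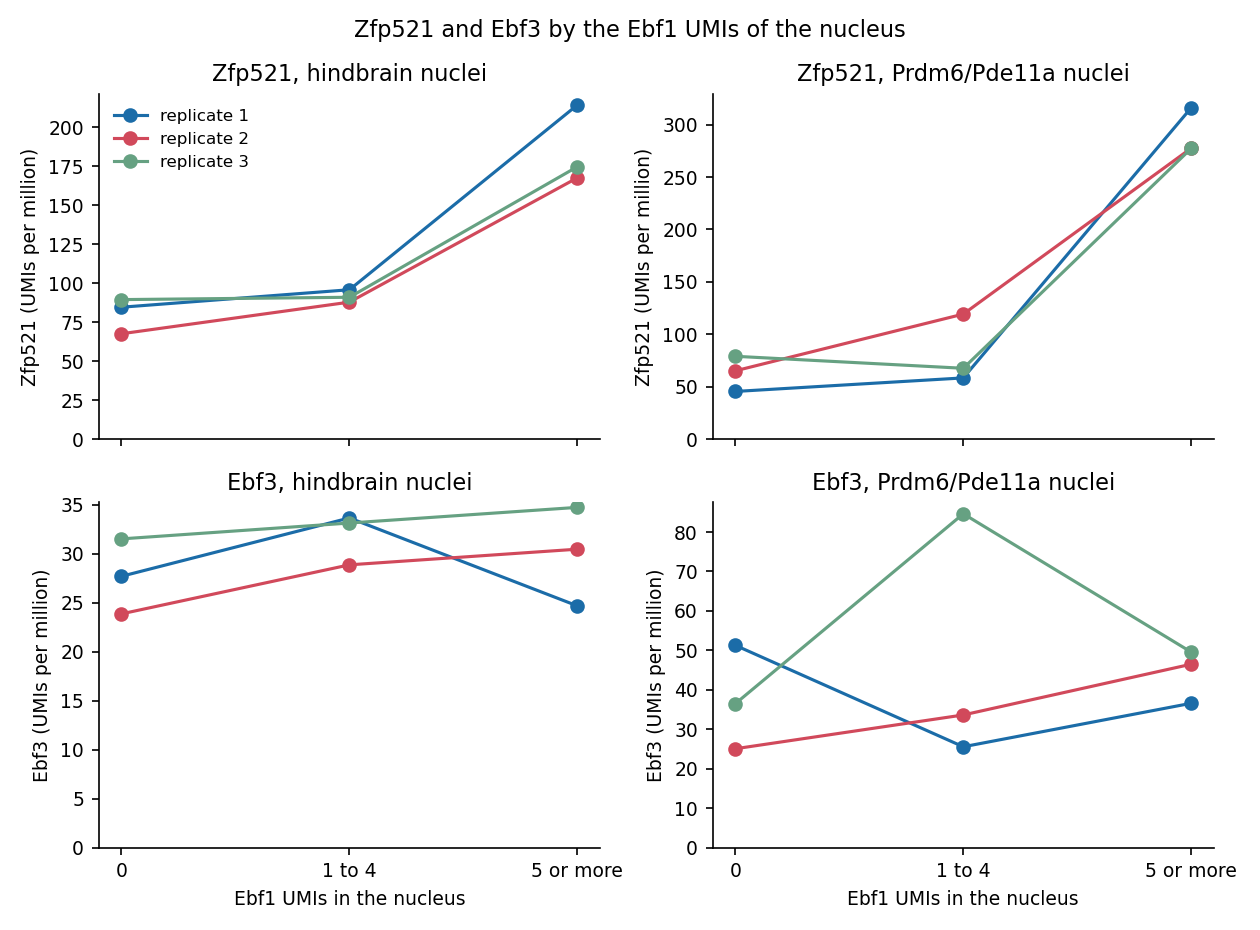
CPM of Zfp521 (top) and Ebf3 (bottom) in hindbrain nuclei (left) and Prdm6/Pde11a nuclei (right) with 0, 1 to 4, and 5 or more Ebf1 UMIs, with 1 line per library. Zfp521 was highest in the class with 5 or more Ebf1 UMIs in each library, at 179 and 282 pooled, while Ebf3 showed no such order.

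Ebf1 is also known in vascular and connective tissue cells, so markers of these were measured beside it. The 10 pericyte and smooth muscle markers summed to 31.6 to 42.8 CPM in Prdm6/Pde11a nuclei and 32.5 to 40.4 CPM in hindbrain nuclei, with 7 to 8 of 10 detected in either. Notch3 gave most of that sum, 22.1 ± 5.68 and 28.8 ± 3.27 CPM, whereas Rgs5 stood at 0.708 ± 0.962 and 0.862 ± 0.619 CPM. The 6 fibroblast markers summed to 3.86 to 11.4 CPM in Prdm6/Pde11a nuclei and 1.69 to 3.48 in hindbrain nuclei, where Col1a1 was at 0. The 7 endothelial markers summed to 13.8 to 25.8 and 13.4 to 19.5 CPM. Prdm6/Pde11a nuclei with fewer than 3 UMIs over these 23 markers held Ebf1 at 1104, 1290 and 1309 CPM, above the 593, 821 and 532 CPM of the 9, 15 and 18 nuclei with 3 or more. Cortical nuclei went the other way, at 8.91, 7.61 and 7.11 CPM with fewer than 3 such UMIs and 75.4, 15.4 and 51.6 CPM with 3 or more. Red nucleus nuclei stood at 120.1, 96.5 and 101.2 CPM against 329.7, 96.3 and 253 CPM, and hindbrain nuclei at 247, 189.6 and 239 CPM against 127, 287 and 118 CPM. The part of these cells in the Ebf1 level of cortical and red nucleus nuclei was not tested. Neuronal markers summed to 1624 to 1888 CPM in Prdm6/Pde11a nuclei.

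The genes whose levels were most like those of each Ebf gene were found by Pearson correlation of log2(CPM + 1) over 18 sums of 3 libraries and 6 types, among 12433 genes. The sums share libraries and types, so the values are descriptions. Among the genes most like Ebf1 were Gm48742 (r = 0.96), Megf11 (0.95), 4930517O19Rik (0.94) and Rnf220 (0.94). Rnf220, a ubiquitin ligase, had 945 CPM in Prdm6/Pde11a and 79.0 CPM in cortical nuclei. Ebf3 was most like AI504432 (0.95), Gm26981 (0.94), Gm31282 (0.94), Mmp16 (0.93) and F13a1 (0.93). Ebf2 was most like Fam199x (0.88), Pappa2 (0.84), Lhx3 (0.83), Gxylt2 (0.82) and Lhfpl2 (0.82). Lhx3, a LIM homeobox factor, had 21.1 CPM in hindbrain and 4.94 CPM in Prdm6/Pde11a nuclei. Among the genes most like Ebf4 were Nrd1 (0.95), Cdh4 (0.94) and 2610301B20Rik (0.93), and Cdh4, a cadherin, had 155 CPM in hypothalamic nuclei and 34.0 CPM in cortical nuclei. Between the paralogs r was 0.74 for Ebf1 with Ebf3, 0.63 for Ebf1 with Ebf2, 0.60 for Ebf2 with Ebf3, 0.51 for Ebf3 with Ebf4, 0.12 for Ebf2 with Ebf4 and -0.0040 for Ebf1 with Ebf4.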

How the data were processed

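The deposited gene-by-barcode counts are whole UMI counts per gene and nucleus that the authors made with Cell Ranger, version 6.1.1 per the file headers and 7.0.1 with build mm10 per the submitters' processing notes. The sources used here do not say which version made these counts or whether introns and strand were used. The libraries held 2710, 11094 and 3713 barcodes with 27435221, 74287112 and 60490064 UMIs. UMIs were summed per library and type, and 15 sums (351956 to 45709753 UMIs) were fitted with edgeR 4.0.16 (TMM, filterByExpr, quasi-likelihood) with the library as a block, since the types of a library come from the same tissue, and so were the arms of each hindbrain split. Adjustment was over all tested genes, 14189 for types. The 11 typing genes were left out only of the counts and shares of genes called, which are over 14178 genes. DESeq2 1.42.0 was an alternative. Tested on simulated data, 82% of genes changed 2.5-fold and 95% of those changed 4-fold were recovered in the Prdm6/Pde11a comparison. The simulation gave all genes the same spread and, apart from the changed genes, all types the same profile. The real types differ in many genes, so the rates hold for that simpler setting. Nuclei were thinned without replacement, and doublets came from Scrublet in Scanpy 1.11.5. Exact binomial and count intervals cover counting error only. The genes named are the Ebf genes, the 5 most alike for each, the 8 largest called rises and falls in each split (at least 20 CPM, same direction in every library), and called members of the gene lists. Some of the genes most alike to Ebf1 and Ebf4 are not reported here. The members and lists were chosen with earlier results of these data known.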

Additional observations from a re-analysis of the deposited data

Results flagged for a closer look

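Nuclei that met no typing criterion belong to none of the comparisons and still held each Ebf gene above the limit that a count of 0 allows, 0.190 CPM. Ebf1 stood there at 90.5 ± 26.4 CPM (SD, n = 3), between red nucleus and hypothalamic nuclei, and Ebf3 at 11.9 ± 1.40 CPM. Ebf2 stood at 3.98 ± 2.35 CPM and Ebf4 at 15.0 ± 2.93 CPM. Of the 1556 nuclei with at least 2 Ebf1 UMIs, 234 had no type. Layer 5 markers summed to 278 ± 49.0 CPM in nuclei of no type and hindbrain markers to 33.8 ± 7.50, and their part in these levels was not tested.

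In replicate 2, the 8325 barcodes outside the limits on genes and mitochondrial UMIs held Ebf1 at 40.6 CPM and Ebf3 at 4.07 CPM, against a limit of 0.509 CPM for a count of 0. The other libraries had 31 and 134 such barcodes, with 3 and 11 Ebf1 UMIs.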

How the results depend on the processing

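Of 306 recomputed values of 29 results, 279 were scored as the same, which for the Ebf genes means the same direction and side of the threshold. Among them were all 55 for Ebf1 in a type against the mean of the other types. Counts of genes called (67 of 74 the same) and co-detection shares (10 of 12) have no direction. Steps between 2 types were not among these values, and that of Ebf1 from hindbrain to red nucleus nuclei passed the 2-fold limit with stricter typing thresholds. With the library block left out, which pairs types and arms of a library, the count of genes called fell from 212 to 30 in the Ebf1 split and from 346 to 146 in the Ebf3 split, and Ebf3 in red nucleus nuclei stood at -1.01 and was not called. With DESeq2 the splits gave 111 and 156 genes. Without a filter on low counts the counts were 1355 for Prdm6/Pde11a (630 higher and 161 lower with it), 598 for hindbrain (330) and 357 for the Ebf1 split, and Ebf4 in hypothalamic nuclei was 0.99. The Ebf3 fall in red nucleus nuclei was also lost with doublets removed (-0.98), stricter typing thresholds (-0.98), nuclei of no type as a type (-0.95) and a minimum of 500 genes (-0.98). Ebf2 in cortical nuclei was -0.67 with stricter thresholds and -0.54 without vascular nuclei, an alternative chosen after seeing the data, and Ebf2 in red nucleus nuclei turned to 1.53 and 0.41. Leaving out each library gave -2.18 to -0.32 for Ebf2 in cortical, -0.93 to 0.71 for Ebf2 in red nucleus, -1.31 to -0.74 for Ebf3 in red nucleus, 0.98 to 1.30 for Ebf4 in hypothalamic and -0.25 to 0.10 for Ebf4 in Prdm6/Pde11a nuclei. At 3000 UMIs, Ebf1 and Ebf3 were found together in 9.82% of Prdm6/Pde11a and 2.47% of hindbrain nuclei. The cause of these changes was not tested, apart from the lower depth of the last.

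Other values changed sign as well. Gm26512, called in the Ebf1 split, was -0.11 without vascular nuclei. Ebf4 in the Ebf1 split was -0.00039 without the filter, -0.032 at any depth, -0.033 without vascular nuclei and -0.048 to 0.060 with a library left out. In the Ebf3 split Ebf4 was -0.082 with DESeq2, -0.0030 without the filter, -0.00078 without the block and -0.18 to 0.17 with a library left out, and Ebf1 was -0.021 to 0.49. With a library left out, Ebf4 in hindbrain against Prdm6/Pde11a nuclei was -0.019 to 0.30, and Ebf2 in hypothalamic against red nucleus nuclei was -5.99 to 0.60, where the lowest value is fitted to 0 hypothalamic UMIs. Without the block, 10 of 26 named genes called in the Ebf1 split kept their call, and 18 of 24 in the Ebf3 split. The split by Ebf3 at 3 or more UMIs was not run, as replicate 1 held 11 such nuclei. Each split leaves 2 residual degrees of freedom.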
